A study of Mus musculus with 23 samples.

Results

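Ubb, Rps27a and Uba1 are the genes treated here: 2 genes that encode ubiquitin and the gene for the main enzyme that activates it. They were taken by gene symbol. All 3 were among the 54446 genes of a raw count table, and all 3 were among the 15624 genes of a second table. Each had 3039 or more reads in every library, so no filter on low values removed one.

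The libraries were made from mouse skeletal muscle, and the first set of 9 held 3 groups of 3. These were denervated muscle of mice labelled PAX4 KO, WT muscle at 10 d after denervation, and innervated WT muscle; the PAX4 KO muscle was also taken at 10 d. The second set of 8 came only from muscle denervated for 10 d, so its controls carried the same operation. It held 3 libraries labelled NRF1-PAX4 double KD, 3 labelled NRF1 KD and 2 labelled WT con, numbers 2 and 3. The labels write the NRF1 target as NRF1PAL, which names alpha-PAL, the product of Nrf1. The sources used here do not give the strain, age or sex of the mice, or how the knockout and the knockdowns were made. By its title, the study asked how transcription factors control proteasome genes.

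Ubiquitin is a small protein that is joined to other proteins and can mark them for breakdown by the proteasome. Cells make it only as longer precursors: Ubb encodes a chain of ubiquitins that is cut into single units, and Rps27a encodes 1 ubiquitin joined to the ribosomal protein eS31 of the small, 40S subunit. Uba1 is the main E1 enzyme: it uses ATP to activate ubiquitin and hands it to the E2 enzymes, which work with ubiquitin ligases. In muscle that has lost its nerve, ubiquitin ligases and the proteasome take part in the loss of muscle protein.

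The files place Ubb on chromosome 11 (62551171 to 62553213, plus strand, GRCm38), and this position is the same in GENCODE M21. Rps27a lies on the same chromosome, from 29545846 to 29548109 on the minus strand. Uba1 lies on chromosome X, from 20658326 to 20683179 on the plus strand. The exons of the 3 genes cover 1675, 1972 and 4819 bases for Ubb, Rps27a and Uba1 in that order. Up to 160 exon bases of Rps27a overlap Clhc1 on the opposite strand, which had 0 to 7 counts per library.

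The coding sequence of Ubb holds 4 ubiquitin units of 228 bases followed by 1 codon, and that of Rps27a holds 1 unit followed by 80 codons. The first unit of Ubb and the unit of Rps27a are shown because they encode the same 76 amino acids in different bases, which bears on whether reads of the genes can be told apart. Both are GENCODE M21 sequences on GRCm38, 5′ to 3′ on the coding strand, and capitals mark the bases at which they differ.
Ubb unit 1: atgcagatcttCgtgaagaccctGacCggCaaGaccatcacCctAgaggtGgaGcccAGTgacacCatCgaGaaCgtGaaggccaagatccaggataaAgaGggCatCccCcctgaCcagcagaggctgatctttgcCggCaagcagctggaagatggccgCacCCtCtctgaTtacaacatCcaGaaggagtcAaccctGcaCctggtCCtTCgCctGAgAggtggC
Rps27a unit: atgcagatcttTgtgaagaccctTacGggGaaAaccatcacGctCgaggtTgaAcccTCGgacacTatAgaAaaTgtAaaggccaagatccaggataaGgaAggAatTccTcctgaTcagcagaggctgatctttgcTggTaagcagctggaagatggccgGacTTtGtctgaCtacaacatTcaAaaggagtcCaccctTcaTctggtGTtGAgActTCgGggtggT
The units were identical at 184 of 228 bases (80.7%) and differed at 44, and the longest stretch without a difference was 20 bases. The 4 units of Ubb were closer to each other, at 95.6% to 99.1%. Over the whole transcript, 61.0% of all stretches of 50 bases in Ubb were also found in another annotated gene (5 genes, 4 of them pseudogenes). For Rps27a the share was 72.0% (15 genes, 14 of them pseudogenes), and for Uba1 it was 0.771%. The pseudogenes had few counts: 43 over the 9 libraries of the first set against 113040 for Ubb, and 25 against 130808 for Rps27a. These counts cover the pseudogenes and not the 1 other gene found for each. The sources used here do not give the read length or the handling of reads that match several places, so the levels of Ubb and Rps27a are uncertain to the extent that reads were divided among such copies.

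The bases before a start of Ubb are shown because NRF1 binds DNA directly and its label names the knockdown. The promoter table of RefSeq (GRCm38.p6) held 5 entries for 2 of the 3 genes, and Rps27a had none. The 250 bases before the first Ubb start, on the plus strand at chr11:62550921-62551170, carry in capitals the core of the NRF1 motif and a CCAAT box.
Ubb start 1: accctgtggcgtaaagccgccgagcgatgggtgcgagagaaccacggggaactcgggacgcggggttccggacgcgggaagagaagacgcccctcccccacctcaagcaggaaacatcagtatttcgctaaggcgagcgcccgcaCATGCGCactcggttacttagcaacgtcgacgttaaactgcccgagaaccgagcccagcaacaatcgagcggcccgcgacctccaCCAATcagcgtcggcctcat
The NRF1 core was searched as CATGCGC. The full NRF1 motif is this core run together with its reverse complement over the shared letters CATG, so that a full match is also a match to the core. The other motifs were CCAAT, TGACNNNGC (antioxidant response element), GAANNTTC (a pair of heat shock factor sites), CCGGAAG (ETS) and GGGCGG (GC box). All were searched on both strands, and they were chosen after this sequence had been seen. The core began at position -105 relative to this start and the CCAAT box at -20. Of 32851 promoters of this length, 3.24% held the core, 33.8% held CCAAT and 0.782% held the full NRF1 motif. The second Ubb start had no NRF1 match but held 1 each of TGACNNNGC, CCGGAAG and GGGCGG, which 10.2%, 6.91% and 32.7% of promoters hold. None of the 3 Uba1 starts held the full motif or the core; the windows of the first 2 overlap and share 1 CCAAT match. GAANNTTC, found in 6.69% of promoters, was in none of the 5 entries. A match is a stretch of letters and not a measured binding site.

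Depth was 21716216 to 42821396 counts per library in the first set and 23740769 to 30165765 reads in the second. Nothing in the labels ties each library to a separate animal, so p-values measure the spread between libraries, which may be partly technical. Pax4 had no count in any of the 9 first-set libraries, 0 in each. Nrf1 had 450, 427 and 454 normalised counts in the double KD libraries, 499, 476 and 524 in those labelled NRF1 KD and 488 and 444 in WT con, so its mRNA was not reduced in muscle labelled NRF1 KD. These genes therefore did not check the labels, and KO, KD and double KD are used below as label names. All 10 skeletal muscle markers were detected, with summed levels of 55860 to 74650 CPM in PAX4 KO, 68562 to 79876 CPM in denervated WT and 100851 to 120885 CPM in innervated WT libraries. CPM here are counts scaled to library sizes adjusted by TMM. Of 10 denervation markers all rose in denervated against innervated WT muscle, where 16.5% of all genes rose. However, 2 libraries stood apart in their summed level. Denervated library 1 had 1527 CPM, where denervated libraries 2 and 3 had 2539.5 and 2575 CPM, and innervated library 2 had 385 CPM, where innervated libraries 1 and 3 had 108 and 133 CPM.

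**Figure D1:**
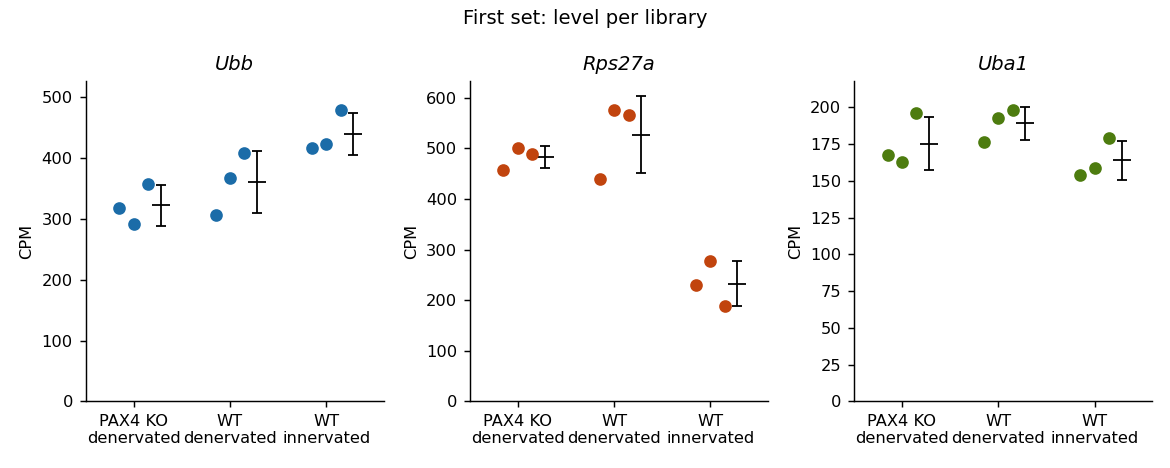
Level of Ubb, Rps27a and Uba1 in CPM (vertical axis, from 0) in each of the 9 libraries of the first set. Points are libraries and the cross-bars are group mean and SD (n = 3). Rps27a lies at 440.3 CPM or more in every denervated library and at 278 CPM or less in every innervated one.

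Of the 3 genes Rps27a alone passed the test with denervation. Rps27a, the ribosomal fusion gene, rose 2.27-fold in denervated against innervated WT muscle. Ubb, the polyubiquitin gene, was lower in every denervated library but did not pass the test, and neither did Uba1. A gene was called where its Benjamini-Hochberg adjusted p, over all genes tested, was under 0.05. On that rule 1 of the 3 was called, against 32.3% of all 16146 genes tested, 16.5% higher and 15.8% lower.

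Rps27a had 440.3, 576 and 566 CPM in denervated WT libraries 1 to 3, against 231, 278 and 189 CPM in innervated WT libraries. The lowest denervated library was well above the highest innervated one. This was a log2 fold change of 1.18 ± 0.16 (SE, edgeR, adjusted p = 0.000721), and the 95% interval of the fold ran from 1.76 to 2.92. In the authors' deposited table the adjusted p of Rps27a for denervated against innervated muscle was 2.21e-08.

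Denervated library 1 and innervated library 2, the libraries whose denervation markers stood nearest to the other group, were also the lowest denervated and the highest innervated library for Rps27a. Without both, the log2 fold change of Rps27a was 1.45 ± 0.14 (edgeR, adjusted p = 0.000233). Leaving out the lowest denervated and the highest innervated library must widen the difference, so this larger value is no further support.

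Ubb had 307, 367 and 408 CPM in denervated WT libraries, against 418, 423 and 479 CPM in innervated ones. The groups did not overlap, but the gap between the highest denervated and the lowest innervated library was small. For Ubb the log2 fold change was -0.29 ± 0.14 (edgeR, adjusted p = 0.144), with a 95% interval of -0.60 to 0.02. Groups without overlap were common here, at 46.6% of all genes tested.

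Uba1 had 177, 193 and 198 CPM in denervated WT libraries, against 154, 159 and 179 CPM in innervated ones. The groups overlapped: the lowest denervated library lay just below the highest innervated one. Uba1 thus had a log2 fold change of 0.21 ± 0.12 (edgeR, adjusted p = 0.202), with a 95% interval of -0.05 to 0.47, so a rise of up to 1.38-fold lay within the interval.

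Which of the ubiquitin genes stood higher per length in innervated muscle depended on the length used. Per kilobase of exon, counting the exons of all transcripts, Rps27a stood at 267 ± 38.3 CPM and Ubb at 215 ± 30.4 CPM in denervated WT muscle (SD, n = 3). In innervated WT muscle Rps27a stood at 118 ± 22.5 and Ubb at 263 ± 20.3 CPM per kilobase of exon. With the length of 1 transcript, of 791 bases for Rps27a and 1499 bases for Ubb (an alternative chosen after seeing the data), Rps27a stood at 667 ± 95.5 and Ubb at 241 ± 34.0 CPM per kilobase in denervated WT muscle. On that length the means in innervated muscle were nearly equal, at 294 ± 56.1 for Rps27a and 293 ± 22.7 for Ubb. Uba1 was the lowest of the 3 on either length, at 39.3 ± 2.32 CPM per kilobase of exon in denervated and 34.0 ± 2.81 in innervated WT muscle.

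The ratio of Rps27a to Ubb reads within a library needs no scaling between libraries. It was 1.44, 1.57 and 1.39 in denervated WT libraries, against 0.553, 0.657 and 0.395 in innervated ones. Every denervated library had more reads of Rps27a than of Ubb, and every innervated one had fewer. The ratio was 2.79-fold higher with denervation (exact permutation p = 0.1, two-sided, adjusted 0.2 over 18 ratio comparisons), and 0.1 is the smallest p that 3 against 3 libraries allow. Uba1 per Ubb read was 0.576, 0.526 and 0.485 in denervated libraries, against 0.368, 0.375 and 0.374 in innervated ones, which is 1.42-fold higher (exact permutation p = 0.1, adjusted 0.2). The innervated libraries were nearly equal in this ratio.

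**Figure D2:**
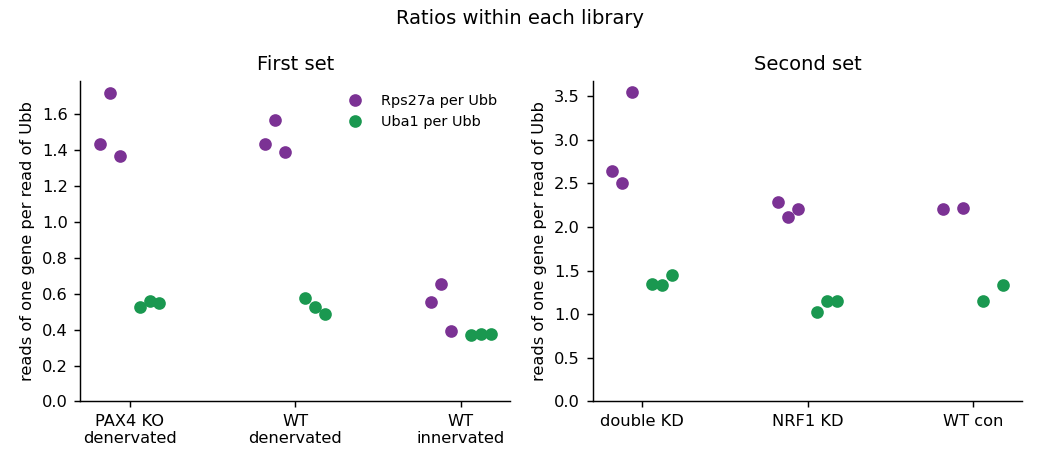
Reads of Rps27a (purple) and of Uba1 (green) per read of Ubb within each library (vertical axis, from 0). The left panel is the first set and the right panel the second, and each point is 1 library. Rps27a per Ubb lies at 1.37 or more in the denervated libraries of the first set and at 0.657 or less in the innervated ones.

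Rps27a rose together with most ribosomal protein genes of its subunit. Of the 31 other genes of the 40S subunit, 29 rose with denervation and the other 2 did not pass, where 16.5% of all genes rose. Their median log2 fold change was 0.82, against 0.02 over all genes tested. Rps27a lay above 29 of them and below 2. Rps26 rose 2.32-fold (log2 fold change 1.22 ± 0.19, edgeR, adjusted p = 0.00115), and Rps25 rose 2.00-fold (log2 fold change 1.00 ± 0.15, adjusted p = 0.00116). The genes most like Rps27a over the 9 libraries, by the root-mean-square difference of mean-centred log2(CPM + 1), were Rps7 (0.056), the translation elongation factor gene Eef1b2 (0.079) and the 60S gene Rpl12 (0.094). The median over 8033 other genes, all with mean levels of 10 CPM or more, was 0.595.

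Stress is known to induce polyubiquitin genes along with heat shock genes, and Ubb was compared with these for that reason. The 17 heat shock genes were mostly cytosolic but had the mitochondrial Hspd1 and Hspe1 among them. Of these, 12 rose with denervation and the other 5 did not pass, where 16.5% of all genes rose. Their median log2 fold change was 0.55. All 17 had a higher log2 fold change than Ubb. Ubb stood at percentile 29.0 of the log2 fold changes of all genes tested, so most genes lay above it as well. Hsp90aa1, the inducible Hsp90 gene, rose 2.11-fold (log2 fold change 1.08 ± 0.16, edgeR, adjusted p = 0.00100), and Hspa4l, a relative of Hsp70, rose 1.61-fold (adjusted p = 0.000844). The genes most like Ubb over the 9 libraries were Ube3b (a root-mean-square difference of 0.037), Gcdh (0.047) and Fbxw5 (0.055), against a median of 0.289.

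Uba1 stood among the other activating enzymes. Of 9 E1 and E1-like genes, which activate ubiquitin or ubiquitin-like proteins, 4 rose and the other 5 did not pass, where 16.5% of all genes rose and 32.3% were called in either direction, and the median log2 fold change was 0.12. Uba1 lay above 5 of them and below 4. Uba3, the catalytic subunit for NEDD8, rose 1.35-fold (log2 fold change 0.43 ± 0.11, edgeR, adjusted p = 0.0162), and Mocs3, which activates URM1, rose 1.68-fold (adjusted p = 0.0178). Uba6, the other ubiquitin E1, had 10.9 ± 0.118 CPM in denervated and 10.4 ± 1.13 CPM in innervated WT muscle (SD, n = 3 each; log2 fold change 0.08 ± 0.13, adjusted p = 0.679). Uba1y, the Y-linked copy of Uba1, had 0 to 6 counts per library. The genes most like Uba1 were Irgq (0.046), Supt6 (0.050) and Gatad2a (0.053), against a median of 0.249.

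Other steps of the pathway are read against the 16.5% of all genes that rose and the 15.8% that fell with denervation. Of 10 genes for enzymes that cut ubiquitin precursors and chains, 7 rose and 1 fell with denervation, with a median log2 fold change of 0.51. Uchl5, a deubiquitinase that binds the proteasome, rose 1.49-fold (edgeR, adjusted p = 0.00233), and Otulin, which cuts linear ubiquitin chains, rose 1.71-fold (adjusted p = 0.00440). Usp7 fell, with a log2 fold change of -0.38 ± 0.10 (edgeR, adjusted p = 0.0194). Of 15 ubiquitin-like modifiers, 4 rose and the other 11 did not pass, and the median was 0.14, where 32.3% of all genes were called in either direction. Map1lc3a and Gabarap, which are joined to autophagy membranes, rose 3.89-fold (adjusted p = 0.000662) and 1.67-fold (adjusted p = 0.00351). Of 32 subunits of the 20S core and the 19S particle of the proteasome, 24 rose and the other 8 did not pass, and the median log2 fold change was 0.52. The lid subunit Psmd11 rose 1.97-fold (edgeR, adjusted p = 0.000325), and Psmd4, a ubiquitin receptor, rose 1.99-fold (adjusted p = 0.000952).

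**Figure D3:**
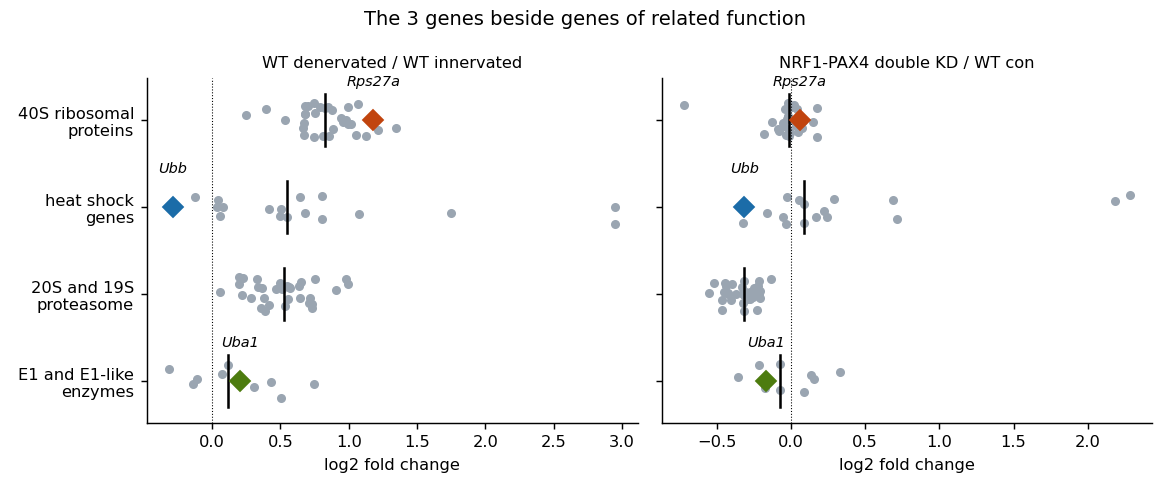
Log2 fold change (horizontal axis) of the genes of 4 lists (grey points, each 1 gene, spread vertically only for legibility), with the list median as a black line and Ubb, Rps27a and Uba1 as diamonds beside the list of related function. The left panel is WT denervated over WT innervated and the right panel NRF1-PAX4 double KD over WT con. In the left panel Ubb lies left of all 17 heat shock genes and Rps27a right of 29 of 31 genes of the 40S subunit. Among all genes tested in that comparison Ubb stood at percentile 29.0 and Rps27a at percentile 92.4.

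Markers of other cell types moved in the same comparison, in both directions. Summed macrophage markers, with all 10 detected, were 398 to 808 CPM in denervated and 103 to 332 CPM in innervated WT libraries. Of these 10, 8 rose, where 16.5% of all genes rose and 15.8% fell. Endothelial markers fell in 6 of 7, smooth muscle and pericyte markers in 6 of 6 and Schwann cell markers in 4 of 7. Adipocyte markers fell in 3 of 6 and fibroblast markers in 1 of 7, and none of these lists held a gene that rose. The share of counts from mitochondrial genes was 18.4% to 23.4% in denervated and 28.7% to 29.5% in innervated WT libraries. The part of these in the values of Rps27a, Ubb and Uba1 was not tested. In bulk muscle, fewer cells of a type and less RNA per cell cannot be told apart.

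In denervated muscle the PAX4 KO libraries did not differ detectably from WT for any of the 3 genes. Ubb had 319, 291 and 358 CPM in PAX4 KO libraries 1 to 3, against 307, 367 and 408 CPM in denervated WT. The groups overlapped, since the lowest WT library lay below 2 of the PAX4 KO libraries, and the log2 fold change was -0.16 ± 0.14 (edgeR, adjusted p = 0.635). Its 95% interval was -0.47 to 0.15.

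Rps27a had 458, 500.4 and 489.9 CPM in PAX4 KO libraries, against 440.3, 576 and 566 CPM in denervated WT. The PAX4 KO libraries lay inside the range of the WT libraries. For Rps27a the log2 fold change was -0.13 ± 0.16 (edgeR, adjusted p = 0.759), with a 95% interval of -0.49 to 0.23.

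Uba1 had 167, 162 and 196 CPM in PAX4 KO libraries, against 177, 193 and 198 CPM in denervated WT, again with overlap. Uba1 had a log2 fold change of -0.11 ± 0.12 (edgeR, adjusted p = 0.702), with a 95% interval of -0.37 to 0.15. All 3 estimates were below 0, and each interval spanned 0, so a change of either direction and of moderate size remained possible. Of all genes tested, 0.0186% were called in this comparison (3 genes, all higher), and 2089 had an unadjusted p under 0.05. The authors' deposited table gave adjusted p of 0.740 for Ubb, 0.967 for Rps27a and 0.747 for Uba1 for its comparison of knockdown with denervated muscle.

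The ratio of Rps27a to Ubb overlapped as well, at 1.44, 1.72 and 1.37 in PAX4 KO libraries against 1.44, 1.57 and 1.39 in denervated WT (exact permutation p = 0.8, adjusted 0.9). Of the 9 E1-like, 15 modifier, 10 processing, 31 ribosomal, 17 heat shock and 32 proteasome genes, none passed edgeR's test, and 2, 2, 1, 0, 0 and 3 had an unadjusted p under 0.05. The median log2 fold change was -0.10 for the 40S genes, -0.17 for the heat shock genes and -0.19 for the proteasome genes, against 0.01 over all genes. All 32 proteasome estimates were below 0. Summed macrophage markers were 721 to 1276 CPM in PAX4 KO and 398 to 808 CPM in denervated WT libraries, with overlap. Summed fibroblast markers were 3153, 8825 and 3335 CPM in PAX4 KO libraries 1 to 3, against 1848 to 2655 CPM in denervated WT. None of the 10 macrophage or 7 fibroblast markers was called by edgeR, and 4 of each list had an unadjusted p under 0.05. The part of these markers in the values above was not tested.

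Against innervated WT muscle, denervated PAX4 KO muscle had higher Rps27a and lower Ubb. Both were called, where 40% of all genes were called in either direction, 21.8% higher and 18.2% lower. This comparison shares the innervated libraries with that of denervated WT muscle, so the 2 are not independent. Rps27a was 2.07-fold higher (log2 fold change 1.05 ± 0.16, edgeR, adjusted p = 0.000932).

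Ubb was 0.733-fold in PAX4 KO denervated against innervated WT muscle, with a log2 fold change of -0.45 ± 0.14 (edgeR, adjusted p = 0.0277). Its 3 PAX4 KO libraries, at 291 to 358 CPM, lay below the 3 innervated ones, at 418 to 479 CPM. Of all genes, 52.3% had no overlap between these groups and 23.3% were lower without overlap. The Ubb call rested on single libraries: without PAX4 KO library 1 or 2, or innervated library 1 or 3, the adjusted p was 0.0726, 0.0910, 0.0540 and 0.0963 in that order. Uba1 did not pass the test (log2 fold change 0.10 ± 0.12, adjusted p = 0.541). No innervated PAX4 KO muscle was sampled, so a different response of Ubb to denervation cannot be told apart from a difference present before it. The direct comparison of PAX4 KO with denervated WT muscle, given above, did not pass the test for Ubb.

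In the same comparison 28 of 31 genes of the 40S subunit rose (median log2 fold change 0.73, against 0.05 over all genes), and Rps27a lay above 29 of them. Among the 17 heat shock genes 9 rose and 1 fell (median 0.44), and all 17 lay above Ubb. Ubb stood at percentile 20.6 of all genes tested here, so most genes lay above it. Hspd1, the mitochondrial chaperonin Hsp60, was the 1 that fell (log2 fold change -0.36 ± 0.12, edgeR, adjusted p = 0.0339). Among the E1-like genes 3 rose and Sae1, a subunit of the SUMO E1, fell (log2 fold change -0.36 ± 0.11, adjusted p = 0.0215). Atg7, the E1-like enzyme of autophagy, rose 1.41-fold (edgeR, adjusted p = 0.0167). Of the processing genes 6 rose and 1 fell. Uchl1, a deubiquitinase abundant in neurons, rose 5.82-fold (edgeR, adjusted p = 0.00416). It had 13.8 ± 3.55 CPM in PAX4 KO and 2.26 ± 2.29 CPM in innervated WT muscle (SD, n = 3 each). Between PAX4 KO and denervated WT muscle the log2 fold changes of the 10 processing genes ran only from -0.27 to 0.16, and none was called. Of the 15 modifiers 5 rose and 1 fell, which is the same share as the 40% of all genes called. Of the proteasome genes 15 of 32 rose, where 21.8% of all genes rose.

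**Figure D4:**
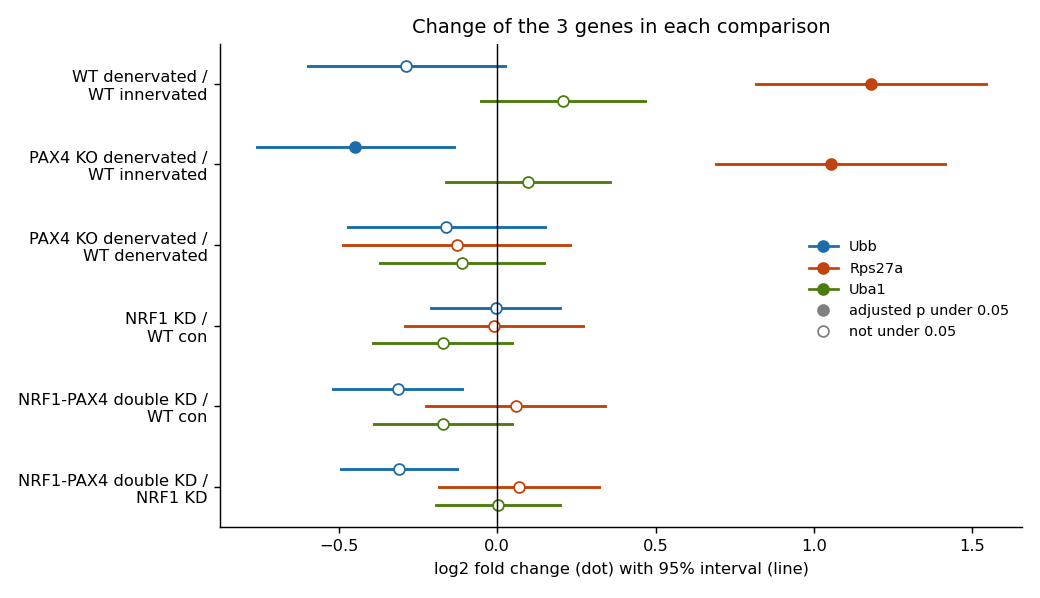
Log2 fold change (horizontal axis) of Ubb (blue), Rps27a (red) and Uba1 (green) in the 6 comparisons, with 95% intervals as lines. Filled dots passed an adjusted p of 0.05 and open dots did not. The filled dots are Rps27a at 1.18 and 1.05 and Ubb at -0.45, all in comparisons with innervated muscle.

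In the second set, where all muscle was denervated, the libraries of Ubb separated and those of Rps27a and Uba1 largely did not. The 3 libraries labelled double KD were the lowest for Ubb, and those labelled NRF1 KD overlapped with WT con. Values of this set are normalised counts, which are reads divided by a size factor of the library. Other markers differed between the same groups. Summed denervation markers, with all 10 detected, were 73892 to 79036 in double KD and 63877 to 76912 in NRF1 KD libraries, against 130456 and 139316 in WT con. Gadd45a alone had means of 31875 in double KD, 28073 in NRF1 KD and 69898 in WT con. That gene thus made up much of each sum and of the difference between them. Of the 10, 5 fell and 1 rose in double KD and 6 fell in NRF1 KD (limma). Of all genes, 1.7% were called lower in double KD and 3.72% in NRF1 KD, each against WT con. Summed fibroblast markers, with all 7 detected, were 48676 to 103987 in double KD and 60791 to 100273 in NRF1 KD libraries, against 23898 and 47836 in WT con. Of the 7, 1 and 3 rose in that order, where 373 and 1184 of all 15624 genes rose. The part of these markers in the values of Ubb, Rps27a and Uba1 was not tested.

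**Figure D5:**
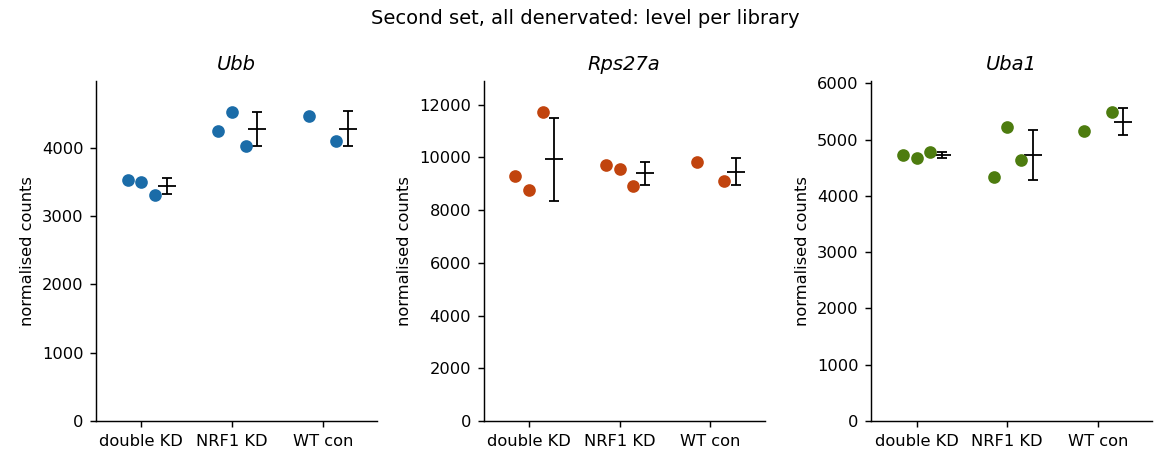
Normalised counts (vertical axis, from 0) of Ubb, Rps27a and Uba1 in each of the 8 libraries of the second set. Points are libraries and cross-bars are group mean and SD (n = 3, and n = 2 for WT con). Ubb lies at 3521 or less in the double KD libraries and at 4027 or more in all others, and double KD library 3 is the highest for Rps27a at 11725.

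Ubb had 3521, 3492 and 3304 normalised counts in double KD libraries 1 to 3, against 4460 and 4098 in WT con. No library of a group reached into the other, which held for 35.7% of all genes tested and for 17.6% in the downward direction. The fold was 0.804, with a log2 fold change of -0.31 ± 0.09 (limma, adjusted p = 0.0822) and a 95% interval of -0.52 to -0.11. The adjusted p missed the threshold of 0.05. In the authors' deposited table, from DESeq2, the log2 fold change of Ubb was -0.32 ± 0.11 (SE) with an adjusted p of 0.0453. The call therefore differed between the 2 tests, at nearly the same size.

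Against the libraries labelled NRF1 KD, at 4249.8, 4522 and 4027 normalised counts of Ubb, the double KD libraries were again lower without overlap, as for 16.3% of all genes and 8.28% in the downward direction. Here Ubb had a log2 fold change of -0.31 ± 0.08 (limma, adjusted p = 0.186), with a 95% interval of -0.49 to -0.13. Both comparisons use the same double KD libraries.

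NRF1 KD libraries overlapped with WT con for Ubb. The log2 fold change was -0.00 ± 0.09 (limma, adjusted p = 0.985), and its 95% interval of -0.21 to 0.20 leaves room for a fall to 0.865-fold or a similar rise. The difference between the double KD and the NRF1 KD response of Ubb is the comparison of these groups given above.

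Rps27a had 9306, 8755 and 11725 normalised counts in double KD libraries, 9709.5, 9559.5 and 8909 in NRF1 KD libraries and 9824 and 9099.9 in WT con. Double KD library 3 stood above all others, and the groups otherwise overlapped. The log2 fold change of Rps27a was 0.06 ± 0.13 for double KD against WT con (limma, adjusted p = 0.838). For NRF1 KD against WT con it was -0.01 ± 0.13 (adjusted p = 0.974). Between double KD and NRF1 KD it was 0.07 ± 0.11 (adjusted p = 0.860). Without double KD library 3 the log2 fold change was -0.07 against WT con and -0.06 against NRF1 KD, so its sign came from that library.

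Uba1 had 4732, 4667 and 4781 normalised counts in double KD libraries, 4344, 5218 and 4639 in NRF1 KD libraries and 5153 and 5494 in WT con. Both double KD and the mean of NRF1 KD lay below WT con, and only the double KD libraries were free of overlap with it. Such a lack of overlap was found for 35.7% of all genes tested, and for 17.6% in the downward direction. The log2 fold change of Uba1 was -0.17 ± 0.10 for double KD (limma, adjusted p = 0.354) and -0.17 ± 0.10 for NRF1 KD (adjusted p = 0.285), each against the same WT con libraries. Between the knockdown groups it was 0.00 ± 0.09 (adjusted p = 0.995), with a 95% interval of -0.19 to 0.20.

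None of the 3 genes was called in limma's test in the second set, where 11.3% of genes were called for NRF1 KD against WT con, 4.08% for double KD against WT con and 0.134% for double KD against NRF1 KD. Ubb had an unadjusted p under 0.05 in both double KD comparisons, which share the double KD libraries. So had 3350 of all 15624 genes against WT con and 1756 against NRF1 KD. Libraries without overlap between NRF1 KD and WT con were found for 45.9% of all genes, and for none of the 3. The reads per length kept 1 order in all 3 groups. Per kilobase of exon, Rps27a stood at 5035 ± 801 normalised counts in double KD, 4763 ± 216 in NRF1 KD and 4798 ± 260 in WT con muscle (SD, n = 3, 3 and 2). Ubb stood at 2053 ± 70.5, 2547 ± 148 and 2555 ± 153 in the same groups, and Uba1 at 981 ± 11.9, 982 ± 92.3 and 1105 ± 49.98.

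The ratios within libraries divide by the same Ubb reads, so they are not a separate result for Ubb. Rps27a per Ubb read was 2.64, 2.51 and 3.55 in double KD libraries, 2.28, 2.11 and 2.21 in NRF1 KD libraries and 2.20 and 2.22 in WT con. All double KD libraries lay above all others. The double KD ratio was 1.30-fold that of NRF1 KD (exact permutation p = 0.1, adjusted 0.2) and 1.30-fold that of WT con (exact permutation p = 0.2, adjusted 0.327), where 3 against 2 libraries allow no p under 0.1. Uba1 per Ubb read was 1.34, 1.34 and 1.45 in double KD libraries, 1.02 to 1.154 in NRF1 KD libraries and 1.16 and 1.34 in WT con. Double KD lay above NRF1 KD in every library, 1.24-fold (exact permutation p = 0.1, adjusted 0.2), but overlapped with WT con. WT con library 2 lay just above NRF1 KD, and WT con library 3, at 1.341, just above double KD library 2, at 1.336.

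Some heat shock genes were higher in double KD muscle, where the Ubb libraries were lower. Of 17, 3 rose against WT con and the other 14 did not pass the test, where 373 of all 15624 genes rose. Their median log2 fold change was 0.09, against 0.02 over all genes, and 15 of the 17 lay above Ubb. Ubb stood at percentile 13.2 of the log2 fold changes of all genes tested, so a like share of all genes lay above it. Hspa1a and Hspa1b, which encode nearly the same inducible Hsp70, rose 4.55-fold and 4.88-fold (limma, adjusted p = 0.0239 and 0.0252), and reads of these near-identical genes may be divided between them in ways the sources do not give. Hspa1a had 1163 ± 582 normalised counts in double KD and 238 ± 102 in WT con muscle (SD, n = 3 and 2). Against NRF1 KD all 17 lay above Ubb, though no heat shock gene passed limma's test. There Ubb stood at percentile 16.4 of all genes tested, so most genes lay above it too. Of the 17, 7 had an unadjusted p under 0.05, as had 1756 of all 15624 genes.

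The genes most like Ubb over the 8 libraries were Flcn (a root-mean-square difference of 0.051), Tex261 (0.055) and Actr1a (0.058), against a median of 0.236 over genes whose mean was 100 normalised counts or more. Most like Rps27a were Bmpr2 (0.036), Snrpd2 (0.037) and Hnrnpk (0.038), against a median of 0.203. Most like Uba1 were Psme3, an activator of the proteasome (0.038), Plekha3 (0.039) and Eid1 (0.043), against a median of 0.187. Rps27a and Uba1 themselves varied little about their means, by a root-mean-square of 0.123 and 0.103, and neither was called in this set. Likeness to them may therefore reflect the spread between libraries.

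Proteasome genes were lower in muscle labelled NRF1 KD, where the libraries of Ubb and Rps27a overlapped with WT con. Of 32 proteasome genes, 26 fell in NRF1 KD against WT con (median log2 fold change -0.45, against 0.00 over all genes), where 3.72% of all genes were called lower. Psmd7 of the lid was 0.685-fold (log2 fold change -0.55 ± 0.10, limma, adjusted p = 0.00935) and the ATPase Psmc4 0.720-fold (adjusted p = 0.00919). In double KD against WT con 7 of the 32 fell (median -0.32), against 1.7% of all genes, among them Psmd2, which was 0.682-fold (adjusted p = 0.0330).

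Of 13 modifiers measured, 1 rose and 2 fell in each of these comparisons, where 11.3% of all genes were called in NRF1 KD and 4.08% in double KD against WT con. Isg15, the interferon-induced modifier, was 4.37-fold in NRF1 KD (adjusted p = 0.00416, limma) and 2.51-fold in double KD (adjusted p = 0.0438), and macrophage markers were higher in the same libraries: their summed level, over 9 of 10 markers listed, was 13333 to 21004 normalised counts in double KD and 17169 to 35138 in NRF1 KD, against 7436 and 9736 in WT con. Gabarapl1 and Atg12, of the autophagy conjugation systems, were 0.710-fold and 0.691-fold in NRF1 KD and 0.764-fold and 0.734-fold in double KD (adjusted p of 0.00963 and 0.0128 in NRF1 KD, and 0.0446 and 0.0473 in double KD, limma). The part of macrophage RNA in the values of these genes was not tested.

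Of the processing genes, Psmd14, the deubiquitinase of the 19S lid, fell in NRF1 KD to 0.712-fold of WT con (limma, adjusted p = 0.0156), and Otulin rose 1.48-fold in double KD against WT con (adjusted p = 0.0304). No E1-like gene passed limma's test in the second set, and 2 of 9 had an unadjusted p under 0.05 in each comparison. Of all 15624 genes, 4311 had such a p in NRF1 KD and 3350 in double KD against WT con, and 1756 between the knockdown groups. Uba6 had 313, 312 and 422 normalised counts in double KD, 378, 374 and 388 in NRF1 KD and 445 and 442 in WT con libraries (double KD against WT con: log2 fold change -0.36 ± 0.15, adjusted p = 0.204). Of 30 other 40S genes, Rps3a1 alone passed in double KD against WT con, where it fell (log2 fold change -0.72 ± 0.13, limma, adjusted p = 0.0163), and the list median was -0.01. None of the 30 passed in NRF1 KD against WT con or in double KD against NRF1 KD, where 0 and 1 had an unadjusted p under 0.05.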

How the data were processed

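First set: the authors deposited unscaled raw counts per gene for 9 libraries. Second set: the values the authors deposited are log2 values, which match DESeq2's variance-stabilised scale, and tables of their own DESeq2 tests with log2 fold changes, p-values, test scores and a mean signal per gene. The submitters' processing notes name the builds GRCm38 and mm10; the labels' protocols name TRIzol and a SMARTER mRNA-Seq kit. The sources used here do not name the aligner, counter, annotation or strandedness.

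Columns were tied to groups by their names; first-set libraries are numbered by ascending number in the column name. Of the second set, 1 column (a mean per gene for 1 of the authors' comparisons) was not used. Of 23 samples, 6 had no column and were not analysed here. The test of counts was that of edgeR 4.0.16 under R 4.3.3 (quasi-likelihood F test, TMM, filterByExpr, all 9 libraries in 1 fit). Log2 values were inverted to normalised counts and tested with limma 3.58.1 (trend) on log2(value + 1), so fold changes there are on that scale; reads recovered from them lay within 0.05 of a whole number for 100% of values, and edgeR on these reads was an alternative, calling 1673, 568 and 20 genes in the 3 comparisons. The SE of an edgeR fold change is its size divided by the root of F. Scripts were tested on simulated counts. P-values were adjusted over all genes tested, and the text's adjusted p come from these models. Libraries of a group differed beyond counting noise (chi-square over its degrees of freedom was 21.8 to 84.4), so none was merged.

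Ubb, Rps27a, Uba1 and the 14 gene lists were chosen with earlier results of these data known. Of each list, up to 2 called genes in each direction by smallest adjusted p were named, or else the 1 with the smallest p; some are left out here for brevity. Uba1y and Uba6 were always named, and the 3 genes most like each member. Other ubiquitin genes are not reported here. Alternatives were another scaling, filter, tool, pseudocount, fit of only the compared groups, a replicate block and each library left out. The other tools were DESeq2 1.42.0 and limma-voom for the first set and edgeR on recovered reads for the second.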

Additional observations from a re-analysis of the deposited data

How the results depend on the processing

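Across 231 alternatives on the 18 results for Ubb, Rps27a and Uba1, 211 kept direction and side of the threshold. Rps27a stayed called in both comparisons with innervated muscle under every alternative, between 1.05 and 1.45 for WT denervated and between 0.92 and 1.20 for PAX4 KO denervated muscle (log2). The Ubb call in PAX4 KO denervated against innervated WT muscle was lost in 5: with no filter on low counts it was -0.44 (adjusted p = 0.0532), and with each library left out it ranged from -0.53 to -0.38, without a call for 4 of 6. Ubb in double KD against WT con was called in none of its 13 alternatives, between -0.38 and -0.25 (adjusted p 0.0751 to 0.413). DESeq2 was not among these, and the authors' DESeq2 test of this comparison gave an adjusted p of 0.0453. Of estimates near 0, 15 changed sign. TMM scaling gave 0.0313 for Ubb, 0.0254 for Rps27a (both NRF1 KD against WT con) and -0.0055 for Uba1 (double KD against NRF1 KD), and edgeR on recovered reads gave 0.0315, 0.0254 and -0.0096. With each library left out, NRF1 KD against WT con ranged from -0.0657 to 0.0564 for Ubb and from -0.0658 to 0.0447 for Rps27a; Rps27a ranged from -0.0670 to 0.14 in double KD against WT con and from -0.0564 to 0.15 in double KD against NRF1 KD, and Uba1 from -0.0580 to 0.0743 in the last.

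Counts of called genes moved more. For PAX4 KO against WT denervated, 3 became 456 with no filter, 192 in DESeq2, 5 in limma-voom, 169 without WT denervated library 1 and WT innervated library 2, and 1 to 26 with each library left out (26 without WT denervated library 1). For NRF1 KD against WT con, 1765 became 550 to 1611 with each library left out. For double KD against WT con, 638 became 231 in a fit of only these groups and 86 to 692 with each left out. For double KD against NRF1 KD, 21 became 1 with a pseudocount of 0.1, 1 with a mean of at least 50 normalised counts, 79 with only these groups and 1 to 158 with each left out. The causes were not tested.

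In the first set the column names give each denervated WT library the number of an innervated WT library, but nothing says what the number marks. Deviations of same-numbered libraries correlated at 0.203, 0.0492 and 0.318, and each denervated library correlated best with its own number; since 1 pair lay under 0.1, the libraries were not treated as paired. In the second set these correlations were -0.219 to 0.141. With a replicate block, Rps27a in denervated against innervated WT muscle was 1.20 (adjusted p = 0.00157), Ubb -0.29 (0.175) and Uba1 0.22 (0.234), and no call on the 3 genes changed; the block gave 630, 136 and 9 called genes in the second set's comparisons. The PAX4 KO libraries share no numbers with the others. Each of the 3 genes had 3039 or more reads per library. The ratio of Rps27a to Ubb per kilobase moved with the length of 1 transcript, being 2.77 in place of 1.24 in denervated and 1.01 in place of 0.454 in innervated WT muscle.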
